A study of Rattus norvegicus with 12 samples.

Results

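miR-186, miR-652 and miR-28 are 3 microRNA (miRNA) genes, each of which gives a 5p and a 3p mature strand from its hairpin. The 6 mature strands, rno-miR-186-5p, rno-miR-186-3p, rno-miR-652-3p, rno-miR-652-5p, rno-miR-28-5p and rno-miR-28-3p, were chosen by name because miR-186-5p, miR-652-3p and miR-28-5p were higher in group M than in group CK in the exosome table. That contrast is therefore described here without a test. A test is given for the heart contrast. The direction in serum against heart was also part of the choice, so the heart p-values are not free of selection. All 6 strands were among the 574 miRNAs of the heart table, and 5 of them, all but miR-652-5p, were among the 367 of the exosome table. The series holds small RNA libraries from 12 samples of SD rats, 6 from heart and 6 from serum. The design text describes a coronary artery ligation of 30 min followed by 1 week of reperfusion. The labels do not say what CK and M stand for, which samples they hold, or whether either had the operation, and they give no other treatment, age or sex. The deposited values are group means, and the arithmetic of these means showed 3 libraries per group in each table. A second table is called exosome, after the small vesicles that cells release, and by elimination it must hold the samples labelled serum, although no isolation step for vesicles is described in the sources used here.

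A miRNA is cut from a hairpin in a longer transcript, and 1 strand is loaded into an Argonaute protein while the other is mostly degraded. The loaded strand pairs through its seed, bases 2 to 8, with target mRNAs and lowers their stability and translation. Many miRNAs lie within protein-coding genes and are cut from the introns of the host transcript, so that strands of 1 hairpin share a source. Blood cells and platelets release miRNAs into plasma and serum, both within vesicles and bound to proteins.

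The mature strands are printed because they show which arm of each hairpin the reads came from and which target sequences each strand can pair with. All 6 matched by name to the RefSeq miRNA table of the rat build GRCr8, as did 527 of the 583 miRNA names in the deposited tables. Capitals mark the seed.
rno-miR-186-5p: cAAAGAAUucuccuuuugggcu
rno-miR-186-3p: gCCCAAAGgugaauuuuuugg
rno-miR-652-3p: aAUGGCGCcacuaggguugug
rno-miR-652-5p: aCAACCCUaggagggggugccau
rno-miR-28-5p: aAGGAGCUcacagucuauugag
rno-miR-28-3p: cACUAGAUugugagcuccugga

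The 6 seeds were all different. miR-708-5p was the one other matched miRNA of either table that carried a seed of the set, AGGAGCU of miR-28-5p.
rno-miR-708-5p: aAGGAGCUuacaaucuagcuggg
It was scarce in heart, at a mean of 19.7 normalized reads in the CK group and 17.6 in the M group of the authors' deposited table, and was not listed in the exosome table. The miR-28-5p seed was therefore represented in the exosome table by miR-28-5p alone among the matched miRNAs.

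The hairpins of miR-186 and miR-652 show both strands in place, with the mature strands in capitals.
Mir186: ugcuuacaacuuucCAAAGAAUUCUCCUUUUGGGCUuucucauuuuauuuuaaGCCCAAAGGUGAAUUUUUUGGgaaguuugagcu
Mir652: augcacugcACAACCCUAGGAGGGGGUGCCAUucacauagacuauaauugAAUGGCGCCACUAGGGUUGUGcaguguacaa

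In the RefSeq gene table of GRCr8, Mir186 lies within the span of Zranb2, a zinc finger protein of RNA splicing, on chromosome 2. Mir652 lies within Tmem164, which encodes a transmembrane protein, on chromosome X, and Mir28 lies within Lpp, a LIM domain protein of focal adhesions, on chromosome 11. The deposited tables give no positions, and exons and introns could not be told apart in the gene table. As background, human miR-28 targets the thrombopoietin receptor mRNA in megakaryocytes, and silencing of miR-652 in mice with pressure overload reduced remodelling of the heart. Human miR-186-5p targets FOXO1 mRNA in cancer cells.

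Estimated depth was 4059000 to 6610000 miRNA reads in heart CK, 2253000 to 5421000 in heart M, 1696000 to 5328000 in exosome CK and 1855000 to 1961000 in exosome M libraries. The labelled tissues were checked against marker lists, with levels as shares of each group's total in the authors' deposited tables. Cardiac muscle miRNAs made up 7.48% in heart CK and 0.196% in exosome CK. Red cell miRNAs made up 2.05% and 13.4%, in the same order. These shares rested mostly on miR-486, with 81592 of the list's 87321 normalized reads in heart CK and 257951 of 296957 in exosome CK. Whether the libraries come from different rats is not stated, so each p-value reflects the spread of these libraries alone, and that spread may be technical.

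In the serum-derived exosome libraries miR-186-5p was higher in M than in CK. Its level, in reads divided by the size factor of the library (normalized reads), was 2152, 2436 and 1526 in CK libraries 1, 2 and 3 and 6083, 5539 and 5672 in M. Every M library lay above every CK library, and the lowest M library was 2.27 times the highest CK library. The group means of 2038 and 5765 in the authors' deposited table correspond to a fold of 2.83. The 3 M libraries differed little among themselves, with a coefficient of variation of 4.92% against 22.8% in CK.

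miR-652-3p, the more abundant strand of its hairpin, was the highest of the set in these libraries. It had 3686, 4303 and 4421 normalized reads in the CK exosome libraries and 11659, 8559 and 10296 in M. The groups did not overlap, and the lowest M library was 1.94 times the highest CK library. The fold of the means was 2.46 in the authors' deposited table, from 4137 to 10171.

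miR-28-5p was the scarcest of the 3 and had the largest fold. It had 191, 263 and 143 normalized reads in the CK exosome libraries, from 146, 351 and 345 reads, and 1092, 823 and 918 in M, from 838, 665 and 745 reads. The lowest M library was 3.13 times the highest CK library. The fold of the means was 4.75 in the authors' deposited table, from 199 to 944. Among the 178 exosome miRNAs with a mean of at least 100 in both groups, 99.4% had a smaller log2 fold than miR-28-5p, 97.2% a smaller one than miR-186-5p and 94.9% a smaller one than miR-652-3p.

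miR-28-3p, the other strand of the miR-28 hairpin, differed less between the groups of the exosome table. It had 814, 1530 and 807 normalized reads in CK and 1044, 1565 and 2000 in M. The groups overlapped, since CK library 2 lay above M library 1, and the authors' deposited table gives a fold of 1.46 between the means.

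miR-186-3p was found in a single exosome library. It had 167 reads in CK library 1, the shallowest of the CK libraries, which is 218 normalized reads, and 0 reads in CK libraries 2 and 3 and in every M library. A count of 0 allows up to 3 reads, or 3.91, 3.71 and 3.70 normalized reads in M libraries 1, 2 and 3, counting error only. The mean of 72.7 that the authors' deposited table gives for CK, beside 0 for M, thus rested on 1 library, and no fold is given. Of the 325 exosome miRNAs whose reads could be reconstructed in all libraries, 64 were found in 1 library alone, 13 of them in CK library 1. Those 13 had a median of 74.0 reads, and 1 of them had more reads than miR-186-3p.

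Among the 5 strands listed for exosomes, 2, miR-186-5p and miR-652-3p, passed an adjusted p of 0.05 with a higher mean in M in the authors' deposited table, as did 2.45% of all its miRNAs. All M libraries exceeded all CK libraries for 3 of the 5, and for 6.74% of the 267 reconstructed exosome miRNAs with a mean of at least 10. The members were chosen from this contrast, so neither count is read as a result.

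**Figure D1:**
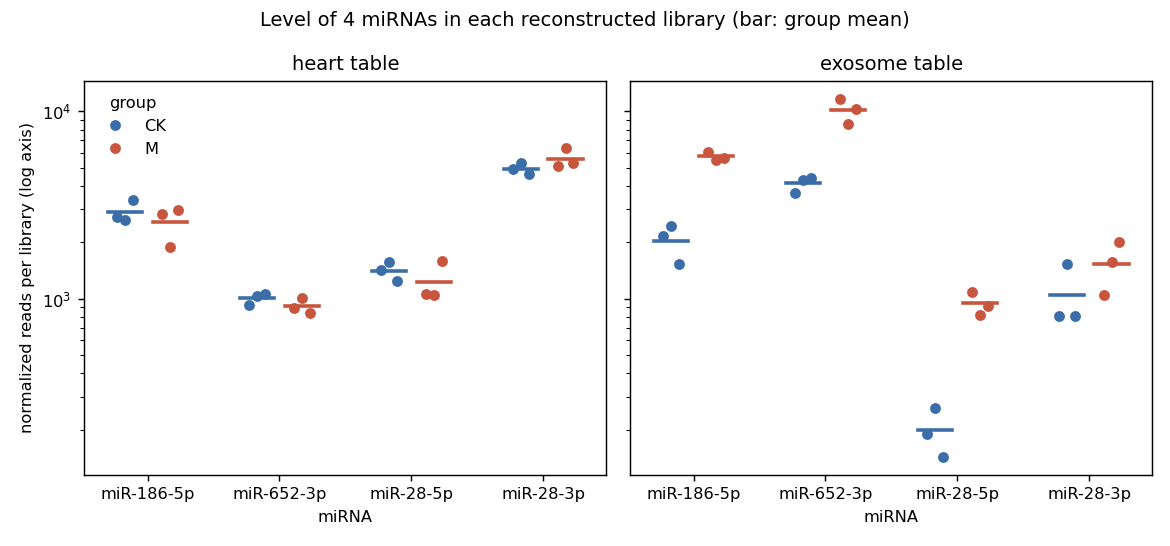
Normalized reads (log axis) of miR-186-5p, miR-652-3p, miR-28-5p and miR-28-3p in each reconstructed library, CK in blue and M in red, with a bar at the group mean of 3 libraries. In the exosome table the M libraries of miR-186-5p lie between 5539 and 6083, above the CK libraries at 1526 to 2436, while all 4 miRNAs overlap between the groups in heart.

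In heart none of the 6 strands differed between M and CK past the threshold. miR-186-5p had 2728, 2631 and 3379 normalized reads in the CK heart libraries and 2821, 1886 and 2975 in M. M library 2 was the lowest of the 6, and the other M libraries lay within the CK range. The log2 fold was -0.20 in limma on the reconstructed levels (SE 0.23, interval at 95% -0.73 to 0.32, adjusted p = 0.608 over all 301 tested miRNAs), and 0.0013 without M library 2. Beside a mean of 2912 in CK and 2561 in M, the adjusted p was 1 in the authors' deposited table.

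miR-652-3p had 929, 1038 and 1064 normalized reads in the CK heart libraries and 892, 1004 and 842 in M. All 3 M libraries lay below the CK mean of 1010, and the ranges overlapped, since M library 2 was above CK library 1. The log2 fold was -0.15 in limma (SE 0.20, interval -0.60 to 0.31, adjusted p = 0.682), and the adjusted p was 1 in the authors' deposited table.

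miR-28-5p had 1420, 1582 and 1243 normalized reads in the CK heart libraries and 1059, 1048 and 1601 in M. M library 3 was the highest of the 6, and the other M libraries were the lowest. The log2 fold was -0.22 in limma (SE 0.24, interval -0.75 to 0.32, adjusted p = 0.597). For miR-28-3p the CK heart libraries had 4930, 5299 and 4637 normalized reads and the M libraries 5106, 6407 and 5300. The M libraries lay above the CK mean of 4955, and 1 of them was below CK library 2. The log2 fold was 0.17 in limma (SE 0.17, interval -0.22 to 0.57, adjusted p = 0.579). Both strands had an adjusted p of 1 in the authors' deposited table.

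The intervals of these 4 heart folds reach no lower than -0.75 and no higher than 0.57 on the log2 scale. A p that misses the threshold does not show that the groups were alike, and differences within these intervals remain possible with 3 libraries per group. No limit of detection for a difference was computed.

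The minor strands of 2 hairpins were at the limit of detection in heart. miR-186-3p had 1, 1 and 3 reads in the CK libraries and 0, 0 and 3 in M, and miR-652-5p had 1, 2 and 4 reads in CK and 0, 4 and 1 in M. No fold is given for either.

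In the authors' deposited heart table, 0 of the 6 strands passed the adjusted threshold, where 0.697% of all 574 miRNAs did. None was below 0.05 without adjustment, where 7.67% of all were. In limma, 0 of the 4 strands with a mean of at least 10 passed, where 0.997% of the 301 tested miRNAs did, and the unadjusted p of these 4 was 0.350 to 0.478.

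Because heart and exosome values were normalized apart from each other, their folds are set side by side without a test. The log2 fold of miR-186-5p was 1.50 in the exosome table and -0.19 in heart, that of miR-652-3p 1.30 and -0.15, that of miR-28-5p 2.25 and -0.19, and that of miR-28-3p 0.55 and 0.18, all from the group means of the authors' deposited tables. The 3 strands with the larger exosome folds had heart means that were lower in M, within the spread of the libraries. The direction in serum against heart was part of the choice of members, so this contrast is not read as a result. In bulk samples fewer source cells or vesicles and less RNA in each cannot be told apart.

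**Figure D2:**
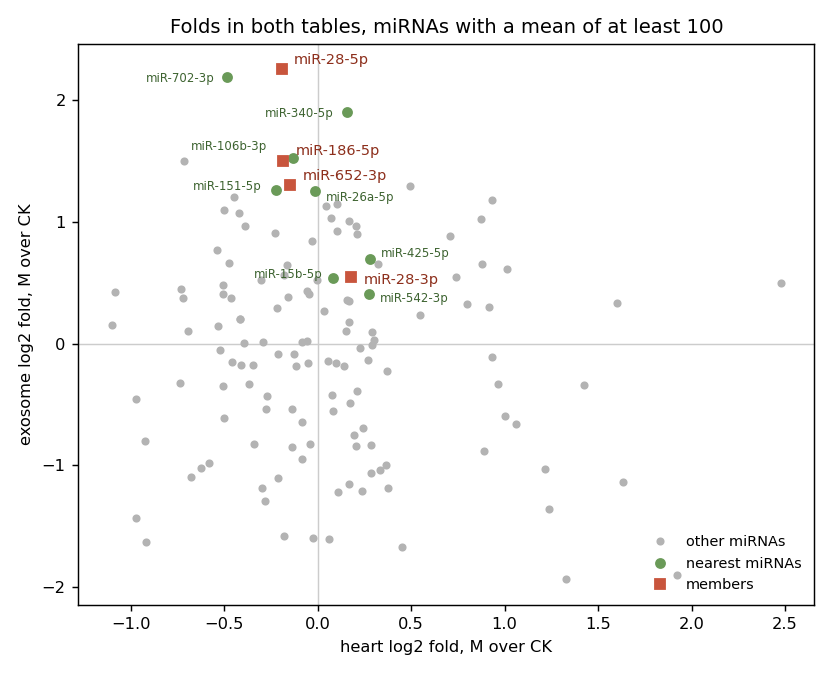
Log2 fold of M over CK in heart (x axis) and in the exosome table (y axis) for the 138 miRNAs with a mean of at least 100 in each of the 4 groups, with the members as red squares and the miRNAs nearest to them in green. miR-28-5p is at 2.25 on the exosome axis, miR-186-5p at 1.50 and miR-652-3p at 1.30, each within 0.20 of 0 on the heart axis.

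The place of each strand among all miRNAs differed between heart and serum. As a share of the group total in the authors' deposited tables, miR-652-3p was 0.0237% in heart CK (rank 106) and 0.187% in exosome CK (rank 53), and was at 0.421% in exosome M (rank 40). miR-186-5p was 0.0683% in heart CK (rank 75), 0.0920% in exosome CK (rank 67) and 0.239% in exosome M (rank 49). miR-28-3p and miR-28-5p were lower in exosome CK than in heart CK as shares, with 0.0474% against 0.116% for miR-28-3p and 0.00898% against 0.0332% for miR-28-5p. miR-28-5p was at 0.0391% in exosome M, at rank 88 after rank 161 in CK.

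Within heart the order of the levels was miR-28-3p, miR-186-5p, miR-28-5p and miR-652-3p, and the library ranges of neighbours did not overlap in either group. In the exosome table the order was miR-652-3p, miR-186-5p, miR-28-3p and miR-28-5p in both groups. There the ranges of miR-186-5p and miR-28-3p overlapped in CK, from 1526 to 1530 normalized reads, and those of miR-28-3p and miR-28-5p overlapped in M. The strands are 21 to 22 bases long, so reads were compared without a length correction, and the ligation steps of library construction also favour some sequences over others.

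**Figure D3:**
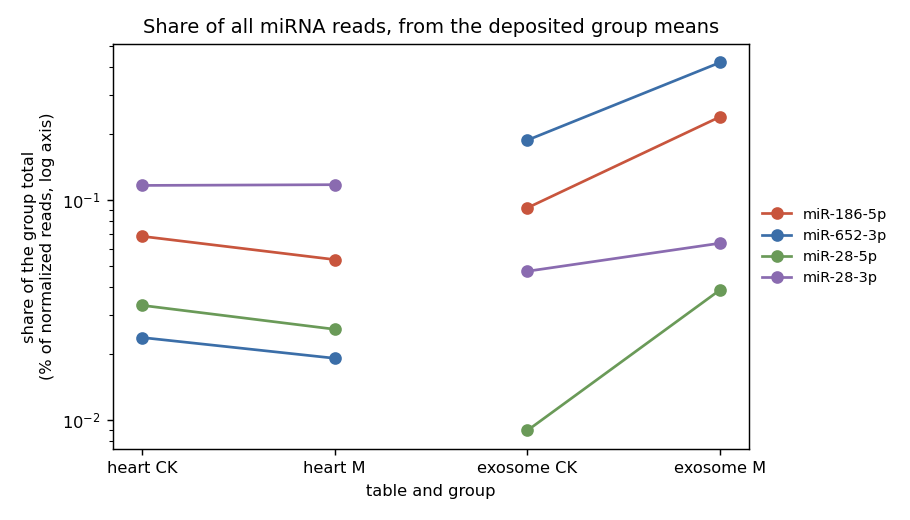
Share of the group total in percent of normalized reads (log axis) for 4 miRNAs in heart CK, heart M, exosome CK and exosome M, from the authors' deposited means, with a line between the groups of 1 table. miR-652-3p goes from the lowest of the 4 in heart CK, 0.0237%, to the highest in exosome CK, 0.187%.

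The split of reads between the strands of a hairpin does not depend on the scaling of a library. For miR-28 the 5p strand made up 22.4%, 23.0% and 21.1% of the miR-28 reads in the CK heart libraries and 17.2%, 14.1% and 23.2% in M. M library 3 lay above every CK library and the other M libraries below, and the means of 22.2% ± 0.939 and 18.1% ± 4.65 (SD, n = 3 each) did not differ beyond this spread (exact permutation test, two-sided, p = 0.400, the smallest possible p being 0.10).

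In the exosome table the share of miR-28-5p was 19.0%, 14.6% and 15.1% in the CK libraries and 51.1%, 34.5% and 31.5% in M. The lowest M library had a Wilson interval at 95% of 29.6% to 33.4%, and the highest CK library one of 16.4% to 21.9%, counting error only. The means were 16.2% ± 2.39 and 39.0% ± 10.6 (SD, n = 3 each). Every M library thus lay above every CK library, as it did for 11.1% of the 45 exosome hairpins with both strands at a mean of at least 10. The 22.8 percentage points between the means of miR-28 were the 9th largest difference in either direction among these 45, whose median absolute difference was 6.99 points. This share rests on the reads that chose miR-28-5p, so it is given without a test.

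**Figure D4:**
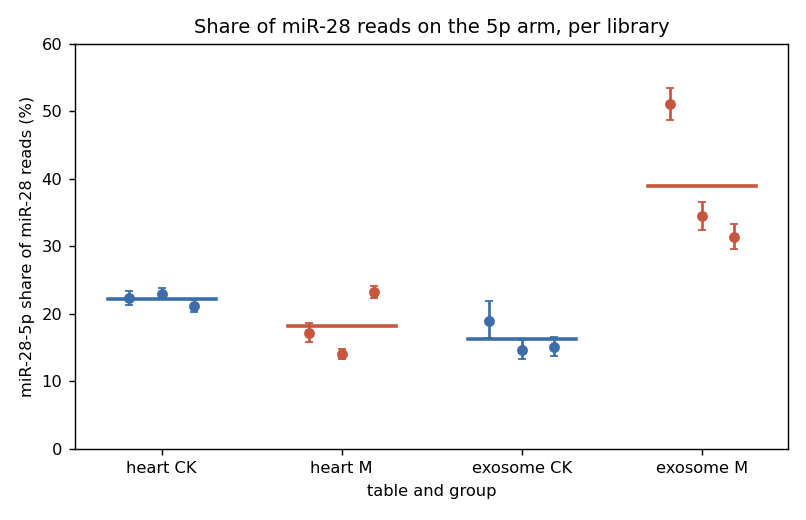
Percentage of miR-28 reads on the 5p strand in each reconstructed library of heart and exosome, CK in blue and M in red, with Wilson intervals at 95% as error bars and a line at the group mean. The exosome M libraries lie at 31.5% to 51.1%, above the exosome CK libraries at 14.6% to 19.0%.

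The other hairpins were almost wholly on 1 strand. miR-186-5p made up 99.9% or more of miR-186 reads in each of the 6 heart libraries and 100% in 5 exosome libraries, and 90.8% in exosome CK library 1. miR-652-5p made up 0% to 0.388% of the miR-652 reads of the heart libraries.

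Other miRNAs, listed by name beforehand as lying within introns of protein-coding genes, were split between both directions. Of 60 such miRNAs in the exosome table, none of them a member, 30 were higher and 30 lower in M, and 2 passed with a higher mean and 0 with a lower one in the authors' deposited table, where 2.45% of all miRNAs passed with a higher mean. The count of 2 is near that share. These 2 were miR-26a-5p and miR-26b-5p, from genes of the Ctdsp phosphatases. The median log2 fold of the list was 0.010, beside -0.15 over all miRNAs with a mean above 0 in both groups. In heart 35 of 75 were higher and 40 lower, with a median of -0.085 beside 0.032 over all, and 1 passed, miR-483-3p of the Igf2 gene, with a lower mean in the authors' deposited table, where 0.697% of all miRNAs passed in either direction.

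Marker miRNAs of other cell types are given for the exosome groups beside the members. Group means of red cell miRNAs in the authors' deposited table summed to 296957 in CK and 337195 in M, a ratio of 1.14, with 5 of 6 higher. miR-486 alone made up 257951 of the CK sum. miR-144-5p had the largest log2 fold of this list, 1.34 from means of 609 and 1541. It did not pass (adjusted p = 0.183 in the authors' deposited table). The other strand of its hairpin, miR-144-3p, was lower in M, at -0.12 from means of 344 and 316. The rest of the list had 0.16 for miR-486, 0.27 for miR-451-5p and 0.35 for miR-16-5p. The scarce miR-16-3p, with means of 21.8 and 46.5, had 1.09. The platelet list had a ratio of 1.13, with 6 of 12 higher, and its miR-26b-5p, also on the intronic list, passed. The most abundant platelet miRNAs went opposite ways. miR-191a-5p went from 218018 in CK to 340104 in M, and miR-24-3p from 194338 to 115360. The leukocyte list had a ratio of 0.907, with 6 of 11 higher, and the liver list one of 0.558, with 2 of 4 higher. The cardiac muscle list had a ratio of 1.04, with 3 of 4 higher. Among these 3, miR-133b-3p was at the limit of detection, with means of 0.139 in CK and 0.411 in M, so its direction is not read. No marker listed in the exosome table was at 0 in either group, miR-208a and miR-208b were not listed there, and the part of these cell types in the folds of the members was not tested.

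Depth also moved with the groups, since 2 of the CK exosome libraries were deeper than every M library. CK library 1, at 1696000 estimated reads, was close to the M libraries in depth. Its levels of 2152 for miR-186-5p and 191 for miR-28-5p lay between those of the deeper CK libraries, and its 3686 for miR-652-3p below them. The lowest M library was 2.57 times as high for miR-186-5p, 2.32 times for miR-652-3p and 4.31 times for miR-28-5p. This sets 1 CK library against M in the contrast that chose the members, and the part of depth in their folds was not tested. The median log2 fold was -0.82 over the 76 exosome miRNAs with a mean of 10 to 100 and -0.14 over the 113 with a mean of 100 to 1000. It was 0.032 over the 45 with a mean of 1000 to 10000.

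The miRNAs whose folds in both tables were most like those of the members were found by distance in the plane of both log2 folds, over 4 group means. They were taken from the 138 miRNAs with a mean of at least 100 in each group. The nearest to miR-186-5p was miR-106b-3p (log2 folds of -0.13 in heart and 1.52 in the exosome table, distance 0.055), followed by miR-652-3p (0.206) and miR-151-5p (0.245). The nearest to miR-652-3p was miR-151-5p (-0.22 and 1.26, distance 0.087), followed by miR-26a-5p (0.142) and miR-186-5p (0.206). In heart, miR-106b-3p, miR-151-5p, miR-26a-5p and both members had unadjusted p of 0.581 to 0.992 (authors' deposited table). The neighbours were chosen partly by their heart fold, so their p-values largely follow from that choice and are not read as a result.

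For miR-28-5p the nearest were farther away. They were miR-702-3p (-0.49 and 2.18, distance 0.300), miR-340-5p (0.15 and 1.90, distance 0.493) and miR-106b-3p (distance 0.729), in folds of the authors' deposited tables. The heart fold of miR-340-5p was -0.012 with the groups scaled to the same sum. For miR-28-3p the nearest were miR-15b-5p (0.082 and 0.54, distance 0.096), miR-542-3p (0.27 and 0.41, distance 0.168) and miR-425-5p (0.28 and 0.69, distance 0.178). The heart fold of miR-15b-5p was likewise -0.084 with the groups scaled to the same sum.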

How the data were processed

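RNA was extracted with Trizol and made into small RNA libraries with a NEBNext kit, per the labels' protocols. Bowtie2 2.2.6, DESeq 1.30.0 and the build mRatBN7.2 were used, per the submitters' processing notes, which give no role or order. The sources used here do not state trimming, miRNA annotation or how shared reads were treated. Per the file headers, the authors deposited, for each miRNA, a signal (mean count divided by size factors) over all libraries, for CK and for M, with the fold (ratio of M to CK), its log2 value, a p-value and an adjusted p-value.

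Each mean was split into whole reads of 3 libraries, as a sum of whole numbers times 3 steps found from the lowest means. Means were searched where chance gives at most 0.1 false solutions, and each searched mean had exactly 1 solution, among them 501 and 494 heart and 307 and 271 exosome means above 0 (CK and M). On simulated means, all 467 and 451 heart and 288 and 256 exosome means were solved correctly. The simulation covered the lower means only. It left out higher ones such as 4955 for miR-28-3p in heart CK, 5765 for miR-186-5p in exosome M and 10171 for miR-652-3p in exosome M. For that last mean chance gives 0.081 false solutions. Library numbers follow depth within a group, with no link to the labelled samples. limma 3.58.1 (R 4.3.3), with a prior that depends on the mean, tested log2(level + 1) of the heart miRNAs averaging 10 or more, adjusted by Benjamini-Hochberg, since the tables hold no counts per sample for a count model. Named neighbours are the 3 nearest miRNAs in both log2 folds. Wilson intervals and floors cover counting error only. Other pseudocounts, scalings and left-out libraries were tried. The members and lists were chosen with earlier results of these data known.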

Additional observations from a re-analysis of the deposited data

Results flagged for a closer look

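miR-652-3p had M libraries on opposite sides of the CK mean in the 2 tables. All 3 M libraries lay below the CK mean in heart, with a log2 fold of -0.15, and all 3 lay above it in the exosome table, with a log2 fold of 1.30, from group means of the authors' deposited tables. In heart the ranges of the groups overlapped and the difference did not pass (limma adjusted p = 0.682, and 1 in the authors' deposited table). miR-652-3p was chosen for its higher exosome mean in M, and the direction in serum against heart was also part of the choice. Neither side, nor their opposite directions, is therefore read as a result. The difference between the tables was not tested.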

How the results depend on the processing

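No paired analysis was possible because the deposited tables hold group means, and the libraries reconstructed from them carry no replicate number of the labels. The count of 0 members past the threshold in heart was also 0 with the adjustment over miRNAs with a mean of at least 10, in limma, and in limma without each library in turn. The heart log2 folds of the group means ranged from -0.31 to -0.0072 for miR-186-5p, -0.22 to -0.092 for miR-652-3p, -0.42 to -0.089 for miR-28-5p and 0.070 to 0.24 for miR-28-3p without each library in turn. The heart limma folds without each library in turn were added after seeing the data. They ranged likewise from -0.33 to 0.0013, -0.22 to -0.092, -0.42 to -0.11 and 0.072 to 0.24, so that miR-186-5p changed sign without M library 2 (0.0013). The exosome log2 folds ranged likewise from 1.33 to 1.65, 1.19 to 1.41, 2.06 to 2.50 and 0.31 to 0.92, and the difference in the share of miR-28-5p from 16.9 to 26.4 percentage points there and from -6.73 to -1.85 in heart. Groups scaled to the same sum shifted every log2 fold by -0.17 in heart and -0.13 in the exosome table. Under this scaling 2 heart folds of neighbours changed sign, to -0.084 for miR-15b-5p and -0.012 for miR-340-5p, and the exosome fold of miR-15b-5p was 0.41. No member's fold of group means changed sign with pseudocounts of 1 and 10 or either scaling. The heart log2 fold of miR-28-3p went from 0.18 to 0.011 with the groups scaled to the same sum. It kept its sign but was then close to 0, so its size in heart depended on the scaling. The reads of the most abundant miRNAs, none of them a member, could not be reconstructed, and 3 libraries per group limit what can be detected.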

Other observations

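Of the 138 miRNAs with a mean of at least 100 in each of the 4 groups, 71 had a higher mean in M in the exosome table and 19 had a log2 fold above 1 there. Of these 19, 11 had a heart log2 fold within 0.25 of 0, and miR-186-5p, miR-652-3p and miR-28-5p are among the 11. These limits were chosen after the values were seen, the members were picked from the exosome contrast, and no test was made.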
